A study of Mus musculus with 12 samples.

Results

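Mitotic clonal expansion (MCE) is the round of cell division that growth-arrested 3T3-L1 preadipocytes pass through after the hormonal cocktail starts adipogenesis, and before they fill with lipid. It is known as a short window in which C/EBPβ (Cebpb) is active, DNA is copied and cells divide, while genes of the mature adipocyte are still low. The genes described here are the 200 with the clearest peak at that stage in control cells, out of 55487 genes in the table. They were chosen on the control libraries alone: among the 12622 genes with at least 1 TPM in both control MCE libraries, each gene was scored by the lower of its MCE levels minus its highest level in the 4 control libraries of the other stages, on the log2(TPM + 1) scale. TPM is a length-corrected share of all transcripts of a library. The levels in control cells are therefore the reason these genes are here and are given only as a description. The question asked of the data was how the same genes moved in cells with less Fto, the RNA demethylase that removes N6-methyladenosine, which took no part in the choice.

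All libraries came from 3T3-L1, a mouse embryonic fibroblast line, carrying a lentiviral hairpin selected with puromycin. shScram cells carried a scrambled hairpin and shFTO cells a hairpin against Fto. Which of the study's Fto hairpins was sequenced is not named in its text, and each line stands for the cells that survived selection. Both lines were grown to confluence and induced with MDI medium, which holds IBMX, dexamethasone and insulin, and sampled before induction (Pre), during clonal expansion (MCE) and after differentiation (Diff), so that MCE and Diff cells of both lines had received the cocktail. In the paper's protocol MDI was followed by a maintenance medium with insulin, for which IBMX and dexamethasone are not listed. Each of the 6 groups had 2 libraries of fragmented total RNA. The labels do not say that the libraries of a group came from separate cultures, so the p-values measure the spread between these libraries, which may be technical.

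Fto had 52.7 to 73.5 TPM in the 6 shScram libraries and 5.51 to 7.47 TPM in the 6 shFTO libraries. Replicate 1 of shScram Diff has conflicting labels, shScram in its title and Fto knockdown in its treatment entry, and was grouped by its title. Replicate 1 of shScram Pre stood apart, with a correlation across genes of 0.939 with its partner against 0.990 to 0.993 in the other groups and with 14.5% of TPM from mitochondrial transcripts against 4.58% to 9.16% elsewhere. Of the 200 genes, 137 were lower in that library than in its partner. When the choice was made without it, 174 of the 200 genes were chosen again and 69.0% of the changed list met the main call below, against 66.0%. The 16 fibroblast markers listed summed to 12190 to 17960 TPM over the libraries. Col1a1 and Vim were abundant in every library, while Cd34 was at 0.120 to 1.60 TPM in all of them. Lum had 0.295 to 0.973 TPM at Pre. The 24 adipocyte genes listed summed to 2274 and 2201 TPM at Diff in shScram, against 834 and 809 TPM at Diff in shFTO. Of the 20 tested, 17 lay lower in both shFTO libraries at Diff and 3 higher. Over all 15968 tested genes 5425 lay lower and 6222 higher. Adipoq had 77.2 and 72.4 TPM at Diff in shScram and 6.05 and 3.66 TPM in shFTO. Diff thus names the stage and not the degree of differentiation reached. In bulk RNA, fewer cells of a type and less RNA per cell cannot be told apart.

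The chosen genes had shScram scores from 0.68 to 4.10, with a median of 0.89. The list ended at Gfpt2 and Rasl11a, both scoring 0.68, and the next genes outside it were H2ac11 at 0.68 and Clspn, also at 0.68, so its lower border separates genes that hardly differ. Their summed level in shScram cells was 3802 and 6111 TPM at Pre, 19746 and 20184 TPM at MCE, and 7694 and 7156 TPM at Diff. In shFTO cells it was 6951 and 6837 TPM at Pre, 18687 and 18588 TPM at MCE, and 11549 and 11919 TPM at Diff. The sum was thus highest at MCE in both lines and fell less far by Diff in the shFTO libraries. By annotation, 173 of the 200 genes are protein coding, 10 are processed and 2 unprocessed pseudogenes, 47 have another member starting within 100 kb, and 44 overlap another tested gene. Whether reads were counted by strand is not stated, so values of the overlapping genes are uncertain; among those described below are Pclaf, Cebpb, Fosl1, Prg4, Adam8 and Sbsn.

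By known function, 29 of the genes serve mitosis, 10 serve DNA replication or chromatin, 28 encode histones and 15 regulate transcription. A further 16 belong to cAMP or receptor signalling, 14 are matrix or secreted proteins and 12 serve metabolism or redox balance. Another 11 are immune surface or acute phase genes, and 15 were grouped as squamous epithelium genes. That last name is loose, since Pip among them is a protein of exocrine glands, and it gives the cells no type. The other 50, mostly predicted genes, RIKEN clones and genes of other kinds, were given no role. The plot of median levels by role shows the peak at MCE in both lines for most roles.

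**Figure D1:**
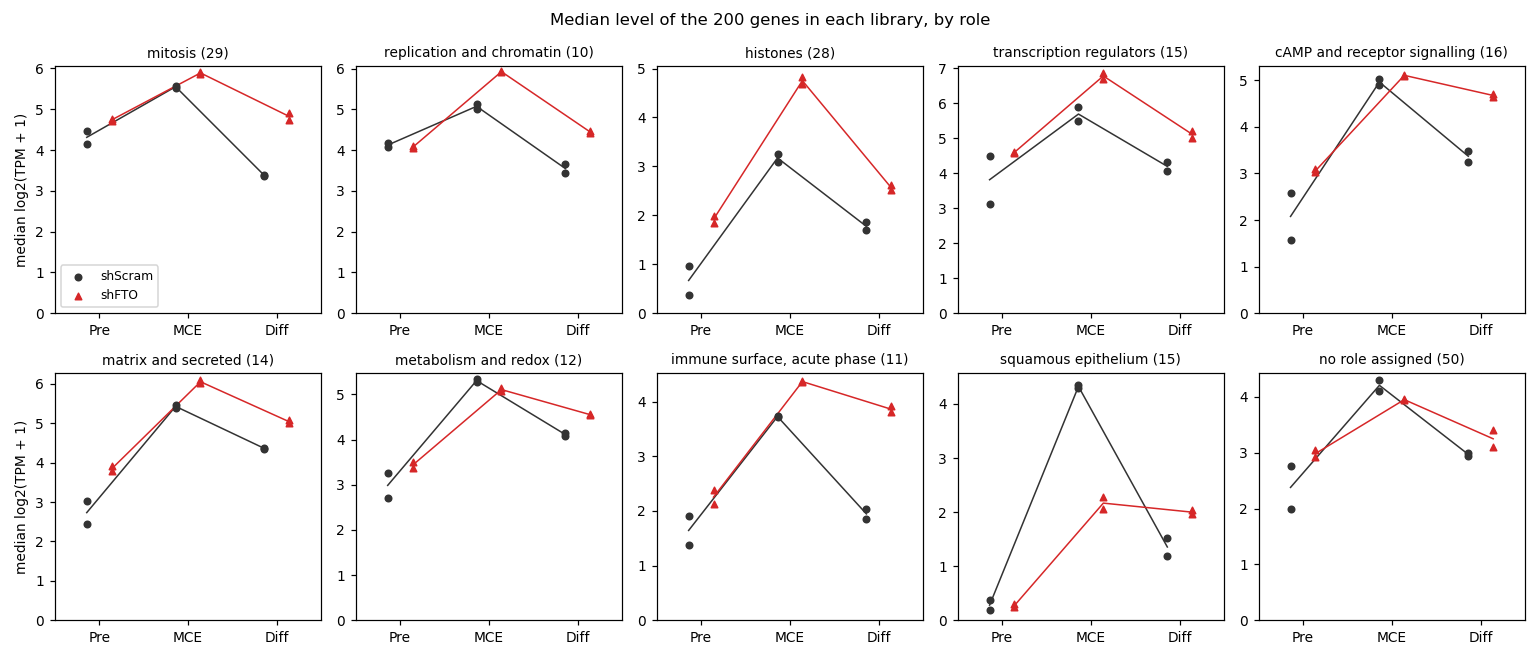
Median log2(TPM + 1) over the genes of each role (number of genes in brackets) in each of the 12 libraries, against stage; black circles are shScram libraries, red triangles shFTO libraries, and lines join the group means. Over the histone genes the median log2 difference, shFTO minus shScram, was 0.83 at Pre, 1.08 at MCE and 0.59 at Diff. Over the squamous epithelium genes it was -1.86 at MCE.

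In shFTO cells most of these genes again had their highest level at MCE, and a minority did not. Each stage was compared with MCE by limma on the 6 shFTO libraries alone, with p-values adjusted over all 15968 tested genes, a set that holds all 200. Of the 200 genes, 169 were higher at MCE than at Pre (16.3% of all tested genes were), 136 were higher at MCE than at Diff (17.2% of all), and 132, or 66.0%, were higher than at both (8.69% of all). Only 5 were lower than at Pre (36.1% of all) and 18 were lower than at Diff (35.0% of all). A further count with no test gave the same picture: in 145 of the 200 both shFTO MCE libraries lay above the 4 other shFTO libraries, which held for 15.1% of all tested genes. The median difference between MCE and Pre was 1.23 on the log2 scale, beside -0.18 over all tested genes, and that between MCE and Diff was 0.77, beside -0.17. Median-ratio scaling between libraries moved the medians over all genes to 0.00, and the members' medians to 1.43 and 0.98. With all 12 libraries in the fit, which lets the shScram spread in, 93 genes were called higher than at both stages, and 3.37% of all tested genes were.

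The median peak was smaller in shFTO than in shScram, the line on which the genes were chosen. The median score was 0.89 in shScram and 0.55 in shFTO, beside -0.71 and -0.53 over all tested genes, and 64 of the 200 genes had the larger score in shFTO. To see the same selection from the other side, the rule was applied to the shFTO libraries. That list of 200 genes had a median score of 1.20 in shFTO and of 0.48 in shScram, where 163 of its genes scored above 0, beside 1754 of all 15968 tested genes. The lists shared 70 genes, which is 35.0% of either. So a drop of the median score in the line that was not used for choosing was seen whichever line did the choosing.

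**Figure D2:**
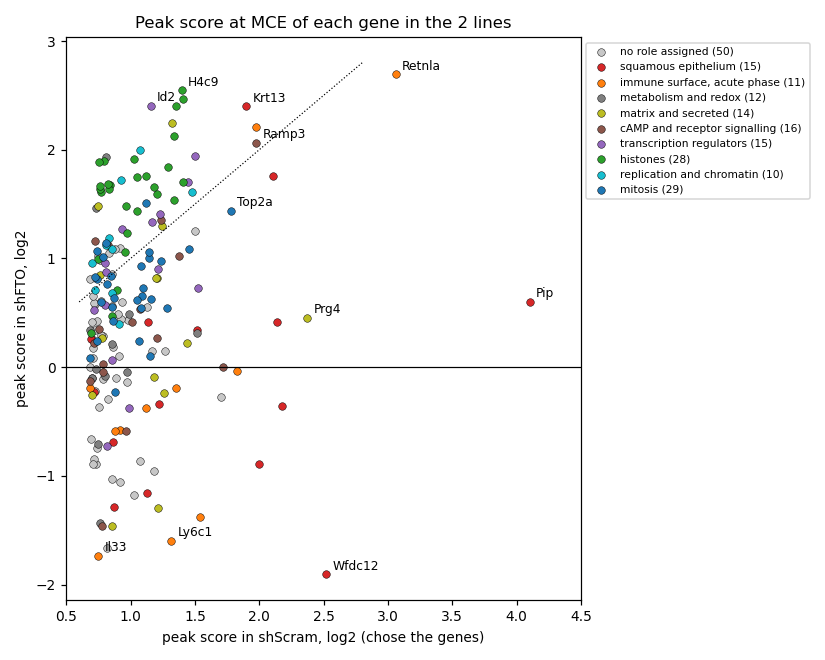
Peak score (lower MCE value minus the highest Pre or Diff value, on the log2(TPM + 1) scale) of each of the 200 genes in shScram on the x axis, which chose them, and in shFTO on the y axis, coloured by role; the dotted line marks equal scores and the solid line a shFTO score of 0. Histone genes lie mostly above the dotted line, and 145 of the 200 genes lie above 0.

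The roles differed in how many of their genes were called higher at MCE than at both other stages in shFTO cells, as 8.69% of all tested genes were. All 28 histone genes were, as were 26 of 29 mitosis genes, 9 of 10 replication and chromatin genes and 12 of 15 transcription regulators. The counts were 10 of 16 for cAMP and receptor signalling, 9 of 14 for matrix and secreted proteins, 6 of 12 for metabolism and redox balance and 24 of 50 for genes without a role. They were 6 of 15 for squamous epithelium and 2 of 11 for immune surface and acute phase genes. The roles were assigned after the members were known and were not tested against each other.

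**Figure D3:**
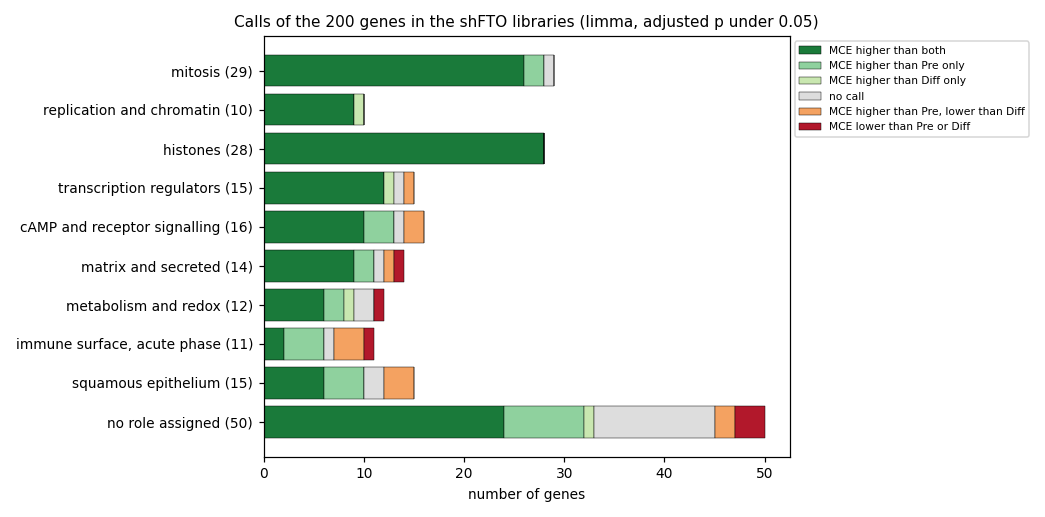
Number of genes (x axis) of each role (y axis, number in brackets) by their call in the shFTO libraries: MCE higher than both other stages, higher than Pre only, higher than Diff only, higher than Pre and lower than Diff, lower than Pre or Diff without being higher than the other, or no call (limma, adjusted p under 0.05). All 28 histone genes and 26 of 29 mitosis genes were higher than both, against 2 of 11 immune surface and acute phase genes and 8.69% of all tested genes.

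Most mitosis genes kept a peak in shFTO cells. With all 12 libraries in the fit, 17 of the 29 were called higher at MCE than at both other stages, as were 3.37% of all tested genes. Top2a encodes the topoisomerase that untangles sister chromosomes. Its level in shScram cells was 109.8 and 82.2 TPM at Pre, 413 and 379.7 TPM at MCE, and 71.1 and 73.4 TPM at Diff. In shFTO cells it was 66.3 and 75.2 TPM at Pre, 305 and 293 TPM at MCE, and 106 and 107 TPM at Diff. The MCE libraries were the highest of both lines, without overlap with the other stages. The shFTO level at MCE exceeded that at Pre by 2.07 ± 0.07 (log2, SE, adjusted p = 2.5e-06) and that at Diff by 1.48 (adjusted p = 2.21e-05).

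Aurkb, the kinase of the chromosomal passenger complex that corrects spindle attachments, had 13.2 and 20.1 TPM at Pre, 46.1 and 45.4 TPM at MCE and 8.52 and 7.10 TPM at Diff in shScram cells. Its shFTO levels were 29.1 and 29.8 TPM at Pre, 82.7 and 74.5 TPM at MCE and 28.8 and 35.2 TPM at Diff. Here every shFTO library lay above every shScram library of its stage. The rise from Pre in shFTO was 1.38 ± 0.11 (log2, SE, adjusted p = 7.15e-05). Bub1b, a spindle checkpoint kinase, Kif2c, a kinesin that takes microtubules apart, and Ccnb1, the cyclin that switches on Cdk1 for entry into mitosis, also rose at MCE in shFTO cells, by 0.73, 1.12 and 0.86 over Pre (adjusted p = 0.000293, 5.44e-05 and 0.000376).

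The exceptions among the mitosis genes in the main fit were Cenpa, Gas2l3 and Cit. Cenpa is the histone that marks centromeres, Gas2l3 links actin and microtubules in dividing cells, and Cit is a kinase of cytokinesis. Cenpa had 53.8 and 52.8 TPM at Pre, 78.0 and 82.2 TPM at MCE and 71.8 and 72.7 TPM at Diff in shFTO cells. It lay above Pre (0.58, adjusted p = 0.000202), which was lost with all 12 libraries in the fit (adjusted p = 0.108), and its difference from Diff was 0.15 (adjusted p = 0.0644), which passed under median-ratio scaling (0.36, adjusted p = 0.00325). Gas2l3 had 8.57 and 9.11 TPM at MCE and 9.05 and 10.2 TPM at Diff, which overlap, above 3.93 and 4.74 TPM at Pre (0.89, adjusted p = 0.0017), and its difference from Diff turned from -0.11 to 0.17 under quantile normalization. Cit passed neither test (0.38 and 0.34, adjusted p = 0.101 and 0.139).

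At Diff the summed level of the 29 mitosis genes was 442 and 421 TPM in the shScram libraries, against 966 and 1043 TPM in the shFTO libraries, which is close to the shFTO level at Pre, 973 and 959 TPM. In all 29 genes both shFTO libraries lay above both shScram libraries at Diff, which held for 6222 of all 15968 tested genes. Since a low Diff level in shScram was part of the choice, that difference between the lines is a description. On a fixed list of 37 tested mitosis genes, of which 11 are members, 32 were higher at MCE than at both other stages in shFTO cells. So were 22 of the 26 that are not members, beside 8.69% of all tested genes. In all 26 of these, too, both shFTO libraries lay above both shScram libraries at Diff, a difference that was not tested.

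Promoters of the mitosis members shared short sequence words that the rule did not use. In the RefSeq promoter set (GRCm38.p6, 250 bases before to 50 bases after a gene's start), 143 of the 200 genes were matched, with 161 promoters among 32851. The word TTTGAA, on either strand, is the core of the cell cycle homology region through which the DREAM complex keeps mitotic genes silent in resting cells. It was in 17 of 24 promoters of mitosis members (70.8%) and in 17.9% of all promoters. CCAAT, on either strand, the word read by NF-Y, was in 75.0% of them and in 37.4% of all. Among promoters of histone members TTTGAA was in 37.0% and CCAAT in 70.4%, so CCAAT was not particular to the mitosis members. Both words were chosen after the members were known. Windows from 4 mitosis members are shown, each with its copy of the word nearest the start. They were picked because that copy lies close to the start. TTTGAA or its complement TTCAAA is in capitals, 5′ to 3′ on the gene's strand, with the places on GRCm38.
Top2a, chr11:99024195-99024224 (minus): gctagataaaggTTCAAAtgaaactaggga
Cdk1, chr10:69352910-69352939 (minus): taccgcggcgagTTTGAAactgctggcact
Ccnb2, chr9:70421533-70421562 (minus): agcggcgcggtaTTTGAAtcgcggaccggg
Ccnf, chr17:24251406-24251435 (minus): gctcccggcgcgTTTGAAaacggggcgggg
In these 4 windows the word starts within 23 bases of the annotated start, and each of the 4 promoters holds a further copy upstream. A match in letters is a description and was not tested as a binding site.

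Replication genes rose at MCE in shFTO cells. Of 39 tested genes on a fixed replication list 38 were called higher than at both other stages, beside 8.69% of all tested genes. Of the 39, 1 was a member, as were 200 of all 15968 tested genes. The member is Rrm2, the small subunit of ribonucleotide reductase. It had 19.6 and 26.2 TPM at Pre, 56.4 and 57.4 TPM at MCE and 16.9 and 12.7 TPM at Diff in shScram cells. The shFTO libraries held 34.0 and 36.4 TPM at Pre, 169 and 161 TPM at MCE and 35.9 and 39.5 TPM at Diff. The shFTO MCE libraries thus stood far above all others, by 2.19 ± 0.07 over Pre (log2, SE, adjusted p = 2.4e-06) and by 2.1 over Diff (adjusted p = 1.07e-05). Pclaf, a partner of the replication clamp PCNA and also a member, had 71.2 and 71.4 TPM at MCE against 16.3 to 20.9 TPM in the other shFTO libraries, and MCE lay 1.98 above Pre (adjusted p = 4.84e-06). Over the 39 genes the median score was 0.04 in shScram and 0.79 in shFTO, and the difference between the lines was not tested.

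Histone genes formed the role with the clearest peak in shFTO cells. Core and linker histones package new DNA, and most are made in S phase from clustered genes. Of the 28 histone members, 24 lie on chromosome 13 of GRCm38 between 21715763 and 23757409. H4c9 had 2.76 and 3.60 TPM at Pre, 58.6 and 50.2 TPM at MCE and 18.4 and 13.8 TPM at Diff in shScram cells. With the shFTO hairpin it had 10.2 and 12.6 TPM at Pre, 113 and 107 TPM at MCE and 14.7 and 17.5 TPM at Diff. The lines overlapped at Diff alone. The shFTO level rose by 3.17 ± 0.12 over Pre (log2, SE, adjusted p = 4.26e-06) and lay 2.70 above Diff (adjusted p = 1.99e-05).

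Hist1h4m and Hist1h4n, further H4 genes, reached 60.1 and 67.5 TPM and 57.7 and 64.6 TPM at MCE in shFTO cells, from 3.06 to 10.1 TPM at the other stages over both genes. H1f2, a linker histone, had 21.7 and 55.4 TPM at Pre, 203 and 193 TPM at MCE and 113 and 99.8 TPM at Diff in shScram cells, and 65.0 and 66.5, 423 and 455, and 136 and 138 TPM at the same stages in shFTO cells. H2ax, the variant that is phosphorylated at DNA breaks, had 279 and 274 TPM at MCE and 74.0 to 83.5 TPM at the other stages in shFTO cells, and lost both of its calls with all 12 libraries in the fit (adjusted p = 0.138 and 0.115). In each of these genes the shFTO MCE libraries were the highest of all 12. Many histone genes are near copies of each other, so reads may be split among them and single values are uncertain.

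Summed over the 28 genes, the MCE level was 1301 and 1354 TPM in the shScram libraries, against 1996 and 2019 TPM in the shFTO libraries. Both shFTO libraries lay above both shScram libraries at MCE in 25 of the 28, which held for 41.1% of all tested genes, and below in 1, against 30.3% of all. Over all 200 genes the counts were 89 above and 91 below. The median score of the 28 was 0.97 in shScram and 1.66 in shFTO. On the list of replication-dependent and linker histone symbols, 54 of 63 tested genes were higher at MCE than at both other stages in shFTO cells and none was lower than at either, by limma. That list includes 38 genes that are not members, 29 of them higher than at both. Over all tested genes 8.69% were higher than at both, 36.1% lower than at Pre and 35.0% lower than at Diff.

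The word TATAAAA of the TATA box, on either strand, was in 12 of 27 histone member promoters (44.4%) and in 5.48% of all promoters. In 3 of the 12, H3c2, H2ac6 and H2bc8, it began at positions -29, -32 and -43 from the start, where TATA boxes usually lie or near it. In the others it began anywhere from -199 to 16, and H2bc12 and H2ac12 share the same stretch. The windows of H3c2 and H2ac6 are shown for that place, with the word in capitals.
H3c2, chr13:23752305-23752334 (plus): tagtctgattgTATAAAAggtggacagcgc
H2ac6, chr13:23683973-23684002 (minus): caggaacctacTATAAAAgctgccgcgtct
H3c2 had 15.7 and 15.0 TPM at MCE in shFTO cells against 1.67 to 4.31 TPM at the other stages, and H2ac6 had 3.76 and 5.01 TPM against 0.302 to 0.526 TPM.

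**Figure D4:**
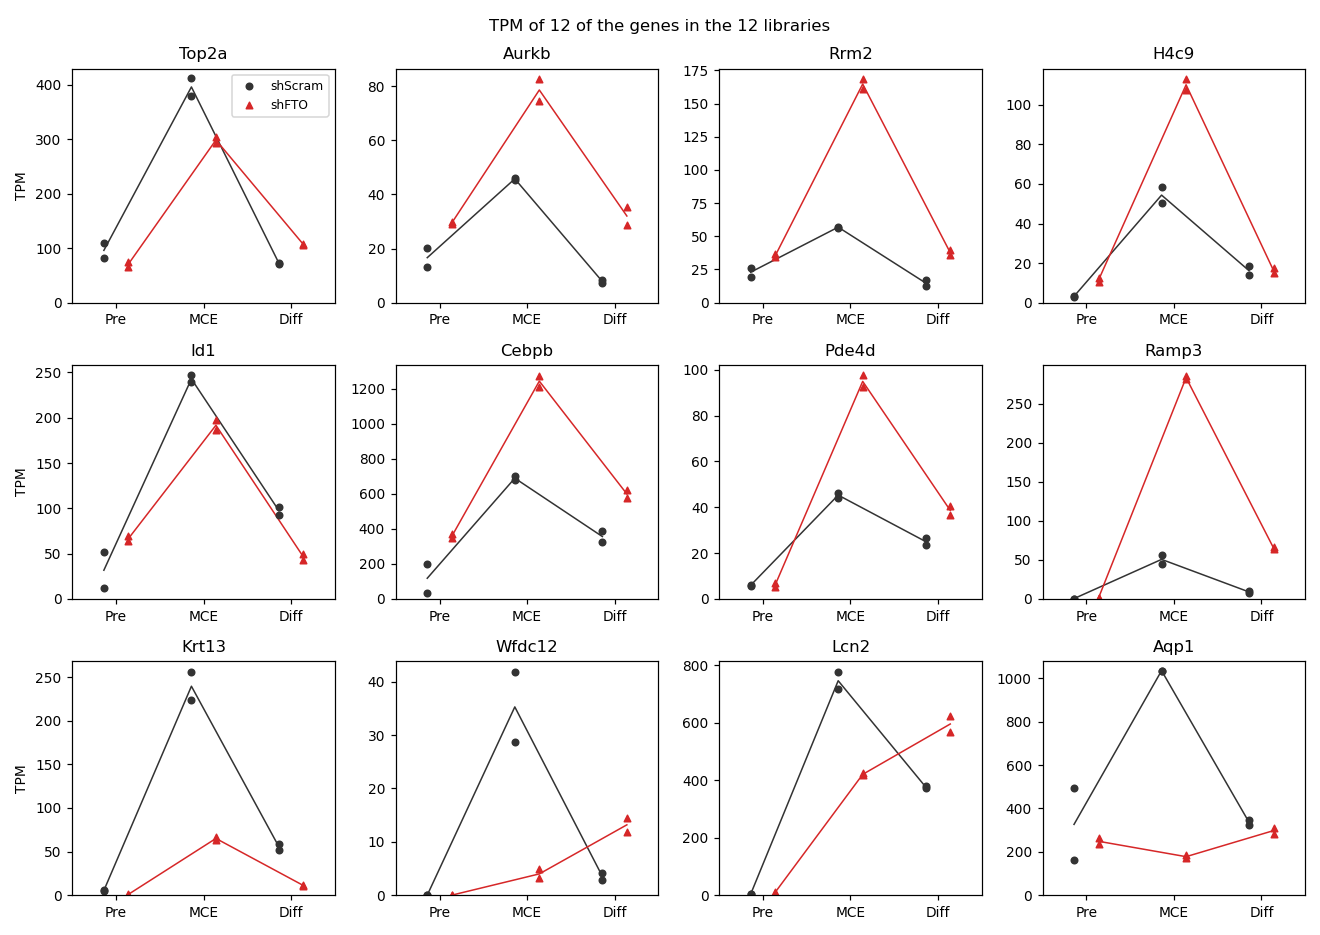
TPM (y axis, from 0) of 12 of the 200 genes in the 12 libraries by stage; black circles are shScram libraries, red triangles shFTO libraries, and lines join the group means. Top2a, Aurkb, Rrm2, H4c9, Id1, Cebpb, Pde4d, Ramp3 and Krt13 were highest at MCE in both lines, while Wfdc12 and Lcn2 were highest at Diff and Aqp1 lowest at MCE in shFTO.

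Among the transcription regulators, the Id genes encode proteins that bind and block basic helix-loop-helix factors and are known targets of BMP signalling. Id1 had 11.5 and 51.8 TPM at Pre, 247 and 239 TPM at MCE and 102 and 93.1 TPM at Diff in shScram cells. Its shFTO levels were 69.5 and 63.5, 186 and 197, and 43.4 and 49.0 TPM. It was highest at MCE in both lines, and rose by 1.51 ± 0.08 over Pre in shFTO (log2, SE, adjusted p = 1.51e-05), a call lost with all 12 libraries in the fit (adjusted p = 0.0524). Id2 rose from 4.36 and 4.06 TPM to 27.4 and 31.1 TPM and had 2.67 and 3.74 TPM at Diff in shFTO cells (2.54 over Pre, adjusted p = 2.94e-05). Id3 had 23.1 and 23.5, 103 and 116, and 52.8 and 54.4 TPM there (2.18 over Pre, adjusted p = 2.5e-06), and lost its call over Diff (1.01) with all 12 libraries (adjusted p = 0.254). All 3 had their highest shFTO level at MCE, without overlap.

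Hes1, a repressor downstream of Notch, was also highest at MCE in shFTO cells, but was not called higher than at Pre. Its shScram levels were 7.73 and 10.7 TPM at Pre, 31.6 and 29.5 TPM at MCE and 14.8 and 15.9 TPM at Diff. Its shFTO levels were 58.1 and 59.7 TPM at Pre, 62.5 and 69.6 TPM at MCE and 15.3 and 14.7 TPM at Diff, so it was already high before induction. The difference between MCE and Pre was 0.16 (adjusted p = 0.112), and passed under quantile normalization (0.28, adjusted p = 0.0204) and median-ratio scaling (0.40, adjusted p = 0.00518).

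Cebpb, the factor that opens the adipogenic programme, had 35.9 and 199.6 TPM at Pre, 676 and 701 TPM at MCE and 388 and 323 TPM at Diff in shScram cells. In shFTO cells it had 346 and 367, 1211 and 1273, and 574 and 623 TPM. Its levels were higher in shFTO at each stage, without overlap, and peaked at MCE in both lines (1.80 ± 0.06 over Pre in shFTO, log2, SE, adjusted p = 3.07e-06, and 1.05 over Diff, adjusted p = 4.97e-05). With all 12 libraries in the fit Cebpb lost both calls (adjusted p = 0.0504 and 0.231). It was the only member on the list of 29 tested adipogenic factors, of which 2 were higher at MCE than at both other stages (8.69% of all tested genes were) and 20 lower than at Diff (35.0% of all) in shFTO cells. Fosl1, a component of the AP-1 factor, had 147 and 141 TPM at MCE against 15.7 to 36.1 TPM at the other stages in shFTO cells. It overlaps Ccdc85b, which is also a member and had a like pattern, so the pair is uncertain.

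IBMX blocks cAMP breakdown, and genes that answer to cAMP or brake it were among the members. Pde4b and Pde4d encode phosphodiesterases that degrade cAMP. Pde4d had 6.14 and 5.70 TPM at Pre, 46.4 and 44.2 TPM at MCE and 23.6 and 26.4 TPM at Diff in shScram cells, and 5.10 and 7.01, 97.5 and 92.3, and 36.5 and 40.7 TPM in shFTO cells. It was highest at MCE in both lines and rose by 3.78 ± 0.13 over Pre in shFTO (log2, SE, adjusted p = 3.17e-06). Pde4b reached 60.7 and 57.5 TPM from 10.9 and 11.3 TPM (2.31, adjusted p = 2.99e-06). Rgs2, which shortens signals of G protein-coupled receptors, went from 18.6 and 18.3 TPM to 421 and 452 TPM and had 302 and 329.8 TPM at Diff (4.49 over Pre, adjusted p = 4.51e-07, and 0.47 over Diff, adjusted p = 0.00124). On the list of cAMP and CREB targets 10 of 32 tested genes were higher at MCE than at both other stages in shFTO cells, beside 8.69% of all. These are the 4 members Pde4b, Pde4d, Rgs2 and Id1, and 6 of the 28 that are not members. Of the 32, 8 were lower at MCE than at Pre (36.1% of all tested genes were) and 6 were lower than at Diff (35.0% of all).

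Ramp3, which with the calcitonin receptor-like receptor forms an adrenomedullin receptor, had the steepest of these rises. In shScram cells it had 0.491 and 0.246 TPM at Pre, 44.4 and 56.7 TPM at MCE and 10.5 and 7.20 TPM at Diff. With the shFTO hairpin it had 1.63 and 0.803 TPM at Pre, 286 and 281 TPM at MCE and 63.4 and 66.6 TPM at Diff. The shFTO level exceeded the shScram level at each stage, and rose by 7.03 ± 0.16 over Pre (log2, SE, adjusted p = 1.01e-06).

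Other genes of this role behaved otherwise in shFTO cells. Ppp1r1b (DARPP-32), an inhibitor of protein phosphatase 1, had 8.31 and 8.14 TPM at MCE in shScram cells and was listed at 0 in all 6 shFTO libraries. Pim1, a serine/threonine kinase, had 7.11 and 7.18 TPM at Pre, 11.6 and 11.4 TPM at MCE and 30.3 and 33.1 TPM at Diff in shFTO cells. The difference from Pre (0.61, adjusted p = 0.00166) was lost with all 12 libraries in the fit (adjusted p = 0.103), and MCE lay below Diff (-1.39 ± 0.09, log2, SE, adjusted p = 7.31e-05).

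Among matrix and secreted proteins, Ecm1, a secreted glycoprotein of the matrix, was the most abundant. It had 119.9 and 191 TPM at Pre, 2729 and 2514 TPM at MCE and 1062 and 963 TPM at Diff in shScram cells. Its shFTO levels were 85.4 and 85.1, 1174 and 1114, and 447 and 454 TPM. It peaked at MCE in both lines, at a lower level in shFTO (3.73 ± 0.05 over Pre, log2, SE, adjusted p = 4.01e-07). Ren1, renin, was listed at 0 at Pre in both lines, and had 18.3 and 18.5 TPM at MCE in shScram, against 109 and 101 TPM at MCE in shFTO, with 20.4 and 15.5 TPM at Diff in shFTO (2.49 between MCE and Diff, adjusted p = 4.15e-05). Prg4, lubricin, had 12 and 11.4 TPM at MCE and 1.40 and 1.06 TPM at Diff in shScram cells, and 225 and 230.4, then 157 and 164 TPM, in shFTO cells, so that it stayed high after MCE there. Prg4 overlaps Tpr on the other strand and its values are uncertain.

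A pair of secreted or surface genes lost the peak. Igfbp6, which binds insulin-like growth factor 2, had 7.68 and 34.1 TPM at Pre, 138 and 133 TPM at MCE and 57.0 and 44.4 TPM at Diff in shScram cells. The shFTO libraries held 21.8 and 19.6, 16.2 and 14.9, and 35.8 and 38.0 TPM, with its lowest level at MCE. It lay 1.20 ± 0.09 below Diff (log2 difference of -1.20, SE, adjusted p = 0.000116), while the fall from Pre (-0.39, adjusted p = 0.0109) was lost under both scalings and without replicate 2 of shFTO MCE (-0.33, adjusted p = 0.0754). With all 12 libraries in the fit neither test of Igfbp6 passed. Adam8, a surface metalloprotease, had 12.2 and 11 TPM at MCE and 31.7 and 32.1 TPM at Diff in shFTO cells (-1.38, adjusted p = 0.000153), against 71.0 and 61.6 and then 32.1 and 33.6 TPM in shScram cells. Adam8 overlaps a gene on the other strand.

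Genes grouped under squamous epithelium were frequent among the highest shScram scores. Of the 15 genes with the highest score 7 belong to this role: Pip, Wfdc12, Prss22, Krt16, Krt15, Spink6 and Krt13. The 12 epithelial markers listed summed to 8.82 and 7.40 TPM at MCE in shScram, and to 2.77 and 2.24 TPM at MCE in shFTO, with 0.701 to 3.99 TPM at the other stages of both lines. Krt19, a simple keratin and itself a member, made up most of the MCE sums and alone passed the filter, while Epcam, Cdh1, Krt5, Krt8 and Krt18 were at no more than 0.0411 TPM in any MCE library. Krt13, a keratin of stratified epithelium, had 4.72 and 6.06 TPM at Pre, 256 and 223 TPM at MCE and 51.6 and 59.1 TPM at Diff in shScram cells. In shFTO cells it had 1.32 and 0.507, 63.3 and 66.7, and 10.8 and 11.2 TPM. The peak was kept at a lower level, and MCE exceeded Pre by 5.14 ± 0.20 (log2, SE, adjusted p = 4.26e-06) and Diff by 2.46 (adjusted p = 0.000145).

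Krt15, a keratin of basal cells, differed more between the lines, with 248 and 311 TPM at MCE in shScram, against 21.3 and 23.2 TPM in shFTO, where it had 5.58 and 5.48 TPM at Diff (1.83 between MCE and Diff, adjusted p = 9.96e-05). Pip, a secreted protein of exocrine glands and the gene with the highest shScram score, had 28.7 and 32.6 TPM at MCE in shScram, against 1.46 and 0.759 TPM in shFTO. Krt16 had 7.94 and 9.38 TPM and 1.13 and 0.768 TPM in the same libraries. Pip and Krt16 were called higher at MCE than at both other stages in shFTO, but at levels near 1 TPM, and both lost the call against Diff without replicate 1 of shFTO MCE (adjusted p = 0.0626 for Pip and 0.0768 for Krt16) and the calls at both stages with no filter on low values.

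Wfdc12, a secreted protease inhibitor with a whey acidic protein domain, reversed its order of stages. It was listed at 0 at Pre in both lines. In shScram cells it had 28.8 and 41.8 TPM at MCE and 2.88 and 4.19 TPM at Diff. Its shFTO levels were 3.15 and 4.82 TPM at MCE and 14.5 and 11.8 TPM at Diff (-1.52 ± 0.21, log2, SE, adjusted p = 0.00117). Sbsn, suprabasin of the upper epidermis, likewise had 8.77 and 10.1 TPM at MCE and 19.1 and 22.9 TPM at Diff in shFTO (-1.07, adjusted p = 0.000958). Spink6, a Kazal-type protease inhibitor, had 4.65 and 3.51 TPM and then 7.34 and 3.59 TPM, and Prss22, a serine protease, had 2.22 and 3.85 TPM at MCE and 1.43 to 3.13 TPM at the other stages, so for both genes MCE and Diff overlapped in shFTO.

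Summed over the 15 genes, the MCE level was 747 and 807 TPM in the shScram libraries, against 180.3 and 195 TPM in the shFTO libraries. Both shFTO libraries lay below both shScram libraries at MCE in 14 of the 15, which held for 30.3% of all tested genes. The median difference between the lines was -1.86 on the log2 scale. The shScram levels chose these genes for a high MCE value, so the difference is a description. The AP-1 word TGAGTCA, on either strand, was in the promoters of 2 of the 10 with a promoter in the set, Krt13 and Sbsn, and in 5.20% of all promoters. Their windows are shown because the genes lie on either side of the split in shFTO cells, with the word or its complement in capitals.
Krt13, chr11:100120593-100120622 (minus): tcagtgggcaaTGACTCAgagggtgtaaag
Sbsn, chr7:30751454-30751483 (plus): acaggagggatTGAGTCAtgaggggtgggg

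**Figure D5:**
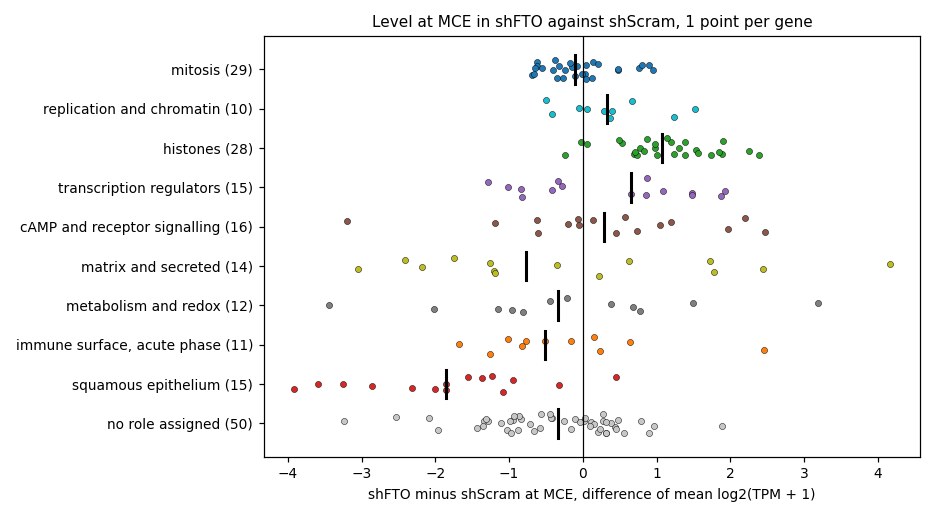
Difference of mean log2(TPM + 1) at MCE, shFTO minus shScram (x axis), for each of the 200 genes by role (y axis, number in brackets); the black bars are medians. Histone genes lie mostly to the right, with 25 of 28 above in both libraries, and squamous epithelium genes to the left, with 14 of 15 below. Over all tested genes 41.1% lay above and 30.3% below.

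Of the 11 immune surface and acute phase genes, 9 were higher at MCE than at Pre in shFTO cells (16.3% of all tested genes were). Lower than at Diff were 4, a share near the 35.0% of all tested genes. Lcn2, a siderophore-binding protein of the acute phase, had 3.86 and 2.76 TPM at Pre, 717 and 776 TPM at MCE and 373 and 379.9 TPM at Diff in shScram cells. The shFTO libraries held 11.4 and 7.93, 417 and 424, and 622 and 569.6 TPM. It was highest at Diff there, but the test against Diff (-0.50, adjusted p = 0.0234) was lost when any of the 4 shFTO MCE or Diff libraries was left out (adjusted p = 0.078 to 0.138) and under both scalings. Ly6c1, a GPI-anchored surface protein, had 159 and 187, 466 and 476, and 114 and 129.9 TPM in shScram cells. With the shFTO hairpin it had 186 and 173, 293 and 257, and 733 and 781 TPM, so the order of MCE and Diff was turned round (-1.46 ± 0.08, log2, SE, adjusted p = 3.39e-05). Its neighbour Ly6c2 had 6.41 and 4.78 TPM at MCE and 14.1 and 13 TPM at Diff in shFTO cells (-1.15, adjusted p = 0.00172). Ly6c1 and Ly6c2 are near copies, so reads may be split between them.

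Il33, an alarmin cytokine, had 3.84 and 3.32 TPM at MCE and 1.43 and 1.57 TPM at Diff in shScram cells, and 22.4 and 26, then 63.6 and 77 TPM, in shFTO cells (-1.50 ± 0.16 between MCE and Diff, log2, SE, adjusted p = 0.000424). Cd33, a sialic acid-binding receptor of myeloid cells, had 11 and 12.8 TPM at MCE and 9.93 and 11.3 TPM at Diff in shFTO, which overlap, against 10.4 and 10.7 and then 1.58 and 2.23 TPM in shScram. The 12 macrophage markers listed summed to 16.8 and 19.5 TPM at MCE in shScram, 56.4 and 58.4 TPM at MCE in shFTO, and 53.4 to 127 TPM at the other stages, of which 5 passed the filter. Adgre1, Tyrobp and Itgam were listed at 0 in every MCE library, and Ptprc was at no more than 0.0517 TPM there. Cd14 had 48.4 and 47.6 TPM at MCE in shFTO, most of the sum, against 4.39 and 5.35 TPM at MCE in shScram, and Cd74 had 5.28 to 10.7 TPM over the MCE libraries of both lines. The part of other cell types in these levels was not tested.

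Retnla and H2-M1 were the members of this role with a peak in both lines. Retnla, a resistin-like secreted protein, was listed at 0 at Pre in both lines, had 62.4 and 68.3 TPM at MCE and 6.60 and 6.13 TPM at Diff in shScram cells, and 19.6 and 19.7, then 0.862 and 2.18 TPM, in shFTO cells. Its MCE level in shFTO lay 3.08 ± 0.25 above Diff (log2, SE, adjusted p = 0.000159). H2-M1, a non-classical MHC class I gene, had 15.0 and 12.6 TPM at MCE and 0.085 to 1.96 TPM at the other stages in shFTO. On the acute phase list, where Lcn2 is the only member, none of 20 tested genes was higher at MCE than at both other stages and 15 were lower than at Diff in shFTO cells by limma, beside 8.69% and 35.0% of all tested genes.

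Dexamethasone activates the glucocorticoid receptor, and 3 of 34 tested glucocorticoid targets were members: Aqp1, Lcn2 and Rgs2. In shFTO cells 21 of the 34 were higher at MCE than at Pre (16.3% of all tested genes were) and 24 were lower than at Diff (35.0% of all). The 3 higher than at both, or 8.82%, are near the 8.69% of all tested genes. Aqp1, a water channel, had 160.2 and 493 TPM at Pre, 1036 and 1036 TPM at MCE and 348 and 323 TPM at Diff in shScram cells. In shFTO cells it had 263 and 234, 184 and 171, and 284 and 312 TPM, lowest at MCE without overlap. It lay 0.74 ± 0.08 below Diff (a log2 difference of -0.74, SE, adjusted p = 0.000433) and below Pre by a log2 difference of -0.48 (adjusted p = 0.0024), which was lost under median-ratio scaling (-0.24, adjusted p = 0.0612). With all 12 libraries in the fit Aqp1 passed neither test.

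Of the 28 predicted genes and RIKEN clones among the members, 13 were higher at MCE than at both other stages in shFTO cells (8.69% of all tested genes were). Gm2511, the highest of them by shScram score, had 4.37 and 3.78 TPM at MCE in shScram cells. It had 4.94 and 5.63 TPM at MCE and 6.19 and 3.07 TPM at Diff in shFTO cells, which overlap.

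Across the 200 genes the calls in shFTO fell into 132 higher at MCE than at both stages, 25 higher than at Pre only, 4 higher than at Diff only, 12 higher than at Pre and lower than at Diff, 6 lower than at Pre or Diff without being higher than the other, and 21 with no call. Of the motifs searched in the member promoters, the cAMP response element TGACGTCA was in 1.24% (1.79% of all promoters), its part TGACG in 27.3% (20.8% of all), and the E2F words TTTGGCGC and TTTCGCGC were in 1.24% and 1.86% (0.514% and 0.323% of all). The glucocorticoid response element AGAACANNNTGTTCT was in none and its shorter form AGAACANNNTGT in 0.621% (0.00913% and 0.414% of all). The C/EBP word TTGCGCAA and the ATF4 word TGATGCAA were each in 0.621% (0.183% and 0.895% of all), the PPAR response element AGGTCANAGGTCA in none (0.0396% of all), TGAGTCA in 4.97%, TATAAAA in 21 of the 161 promoters, TTTGAA in 26.7% and CCAAT in 53.4%. Both strands were searched, and TGACG lies within the cAMP response element and AGAACANNNTGT within the glucocorticoid one.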

How the data were processed

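RNA-seq of fragmented total RNA from 3T3-L1 cells with the shScram or shFTO hairpin was used for 3 stages, with 2 libraries in each of 6 groups, grouped by title. Reads were trimmed (Trim Galore 0.6.5) and mapped to GRCm38 (HISAT2 2.1.0) by the authors, who deposited gene-level TPM made with StringTie 2.1.4. TPM keeps no depth, so depth per library is unknown, and 20853 to 24018 genes were above 0 in a library. From the deposited TPM, log2(TPM + 1) was computed, which understates the change of low genes. The 15968 genes with at least 1 TPM in at least 2 of 12 libraries entered limma 3.58.1 (R 4.3.3), fitted to the 6 shFTO libraries with group means, trended eBayes variances, 3 residual degrees of freedom, two-sided p-values and Benjamini-Hochberg adjustment, and calls were made at an adjusted p of 0.05. The fit was tested on simulated data. The authors used DESeq2 on counts, which was not repeated because TPM is no count. Coordinates are from GENCODE M21, which held 197 of the 200 genes, and promoters from RefSeq GRCm38.p6. Python 3.11.15 with numpy 2.4.6 and pandas 2.3.3 did the rest.

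The members and lists were chosen with earlier results of these data known. Genes were named by rule: the 15 highest shScram scores, the 2 genes on each side of the limit, the 8 highest and 8 lowest shFTO scores among members with a mean of 5 TPM in shScram MCE, up to 6 members of each list with at least 3, and Fto. Other genes named were chosen after their values were seen. The values of 1 gene that the rule names are not reported here, though it stays in every count. Alternatives were other pseudocounts, filters, scalings, fits, left-out libraries and membership limits.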

Additional observations from a re-analysis of the deposited data

Results flagged for a closer look

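In 8 members every shFTO library of MCE lay below all 4 other shFTO libraries, while every shScram library of MCE lay above all 4 other shScram libraries, as the choice of the members required. Values of 7 of them are given here, each the higher shFTO MCE library minus the lowest other shFTO library on the log2(TPM + 1) scale. The value was -0.34 for Aqp1, -0.26 for Igfbp6, -0.22 for Rps18, -0.13 for Phlda3, -0.12 for Gm50478, -0.10 for Smpd3 and -0.059 for Itgb7. By limma in shFTO, Itgb7, Smpd3 and Gm50478 passed neither the test against Pre (adjusted p = 0.142, 0.125 and 0.126) nor that against Diff (adjusted p = 0.444, 0.0971 and 0.0502). The fall of Rps18 from Pre (adjusted p = 0.0477) was lost under both scalings. The difference between the lines was not tested, since the shScram values chose the genes. Over all tested genes 5857 of 15968 had this order in shFTO. Rps18, a ribosomal protein gene with pseudogene copies, overlaps Vps52, and Gm50478 overlaps Asnsd1 and Gm28551, so their values are uncertain.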

How the results depend on the processing

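Of the 200 genes, 169 were higher at MCE than at Pre, 136 than at Diff and 132 than at both in shFTO cells, and these counts stayed within 1.5 times under all 14 alternative fits (134 to 178, 102 to 146 and 93 to 142). The 5 genes lower than at Pre became 2 with no filter on low values, 1 with all 12 libraries in the fit, 3 under quantile normalization and 2 under median-ratio scaling, and the 18 lower than at Diff became 11 with all 12 libraries. The median shFTO score of 0.55 was 0.75 under median-ratio scaling and 0.68 under quantile normalization. Over all tested genes, 1388 were higher than at both stages, against 847 with no filter, 538 with all 12 libraries, 2364 under quantile normalization, 2840 under median-ratio scaling, and 894 and 905 without replicate 1 or 2 of shFTO MCE. Choosing the members without any 1 shScram library kept 132 to 179 of them, the fewest without replicate 2 of shScram Pre. The median shFTO score was then 0.34 (without replicate 1 of shScram MCE) to 0.61, and it was 0.43 over the 400 genes of highest score. Of the changed lists, 61.5% to 70.0% were called higher at MCE than at both stages in shFTO cells, but 54.0% without replicate 1 of shScram MCE.

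Replicate numbers shared by the stages were not shown to pair libraries (correlations of deviations 0.0186, 0.0402 and 0.172). With the replicate block the counts were 167, 135 and 131, with 5 lower than at Pre and 17 lower than at Diff.

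Of 1826 values recomputed for 66 named genes, 1717 kept direction and call, 76 lost the call, 21 of them with all 12 libraries and 14 with no filter, 19 gained it and 14 turned round. Against Diff, under quantile normalization, Spink6 was 0.12, Itgb7 0.24, Gas2l3 0.17 and Smpd3 0.082, and Itgb7 against Pre was 0.0004. Under median-ratio scaling, the differences from Diff were 0.063 for Ly6a, 0.057 for Itgb7, 0.037 for Phlda3, 0.085 for Gas2l3 and 0.11 for Rasl11a. Leaving out single shFTO libraries gave -0.062 to 0.70 for Prss22 against Pre and, against Diff, -0.19 to 0.40 for Prss22, -0.73 to 0.14 for Spink6 and -0.20 to 0.63 for Gm2511. The cause of these changes was not tested. TPM keeps no depth, so counting error is unknown, and 11 members were under 1 TPM in both shFTO MCE libraries.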
